A study of Mus musculus with 6 samples.

Results

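Clu encodes clusterin, a secreted glycoprotein also known as apolipoprotein J and sulfated glycoprotein 2. It was taken as 1 gene of the 51826 gene symbols counted in the series, by its symbol, because its level differed between GFP-positive (GFPpos) and GFP-negative (GFPneg) mammary cells. The same reads that chose it give the levels below, so its difference between the groups is described and not tested. All libraries came from C57B6/N mice of the genotype SMAcreERT2/N1ICD. Smooth muscle actin regulatory sequence drives a Cre recombinase that responds to tamoxifen, and the second allele carries the Notch1 intracellular domain, the part of the receptor that acts in the nucleus. The mice received 1 tamoxifen dose on postnatal day 21 and their mammary basal cells were sorted 72 hours later, on postnatal day 24. Each of 3 replicates was a pool of 2 to 3 mice that gave 1 GFPpos and 1 GFPneg library, 6 libraries in all. Both groups carried both alleles and received tamoxifen, no group lacked the Notch1 allele, and the labels do not state what the GFP reports. Smooth muscle actin is also made outside the mammary epithelium, in the muscle cells and pericytes around vessels. The series asks how Notch activation switches the fate of mammary cells.

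Clusterin is made in the secretory pathway, cut into a pair of disulfide-linked chains and released, and outside the cell it binds misfolded proteins and keeps them soluble. It also binds terminal complement components, travels on lipoprotein particles and is taken up through lipoprotein receptors. In the mammary gland it is best known as a gene that rises when the gland regresses after weaning. In the injured intestine it marks epithelial cells that appear during regeneration.

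The gene (ENSMUSG00000022037.15) lies on the plus strand of chromosome 14, from 65968483 to 65981547 in mm10. It is protein coding with 9 annotated transcripts of up to 9 exons, its merged exons span 3437 bases, and 0 annotated genes overlap it on either strand. The counts are per gene and do not separate the transcripts.

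The GFPneg libraries held 67, 2069 and 1639 Clu reads in replicates 1, 2 and 3, and the GFPpos libraries 9218, 14325 and 47932. Scaled by the effective library size to CPM (reads per 1000000 gene counts, with TMM factors that correct for RNA composition), Clu stood at 220, 106 and 149 CPM in GFPneg cells and at 835, 1115 and 2488 CPM in GFPpos cells. The lowest GFPpos library was 3.80 times the highest GFPneg library, so that the groups did not overlap. Of all genes tested, 9.53% had groups that did not overlap with GFPpos cells higher and 3.63% with GFPpos cells lower. Clu was chosen from this contrast, so nothing is read from that for Clu.

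The means were 1479 ± 885 CPM in GFPpos against 158 ± 57.3 CPM in GFPneg cells (SD, n = 3 each). The fitted log2 fold change was 3.24 (SE 0.50), a 9.46-fold difference. It ranked 109th from the top among the log2 fold changes of the 13873 genes tested. In bulk libraries such as these, more cells with the transcript and more transcript per cell cannot be told apart.

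**Figure D1:**
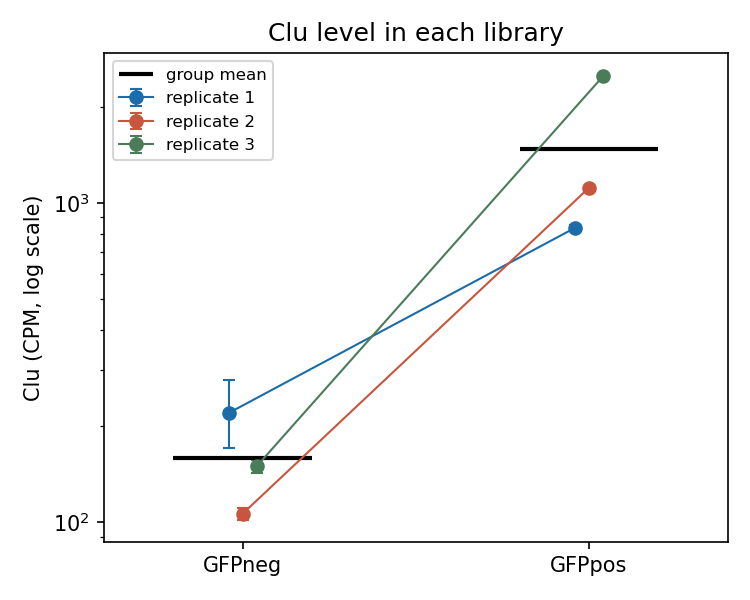
Clu level in each library, in CPM on a log axis. Points are libraries, lines join the fractions of 1 pool, bars are 95% exact Poisson intervals for counting error and black lines are group means. The GFPpos libraries lie between 835 and 2488 CPM and the GFPneg libraries between 106 and 220 CPM.

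The pairs differed in the size of the difference. Clu was 3.80 times higher in the GFPpos fraction of replicate 1 (95% exact interval 2.99 to 4.91), 10.5 times higher in replicate 2 (10.02 to 11.0) and 16.7 times higher in replicate 3 (15.9 to 17.5). The intervals cover counting error only, and those of the 3 pairs did not overlap. The small ratio of replicate 1 comes with the shallowest library. GFPneg replicate 1 held 611465 gene counts, against 9912610 to 16043492 in the other 5 libraries, and 69.2% of them lay in 5 abundant noncoding features (22.7% to 34.7% elsewhere). Its Clu level rests on 67 reads, which allow 170 to 279 CPM.

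With TMM factors, the order of libraries was GFPneg replicate 2, GFPneg replicate 3, GFPneg replicate 1 and then GFPpos replicates 1, 2 and 3. No counting intervals of neighbours in this order overlapped, the closest being GFPneg replicate 3 (142 to 157 CPM) and GFPneg replicate 1. Within a group, however, pools differed by more than counting error, 2.98-fold between the lowest and highest GFPpos library and 2.07-fold among GFPneg libraries. The spread between pools therefore sets the precision, and the order inside a group describes these pools alone.

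The scale used for replicate 1 mattered. As CPM of all gene counts, without the TMM factors, Clu stood at 110, 129 and 165 in GFPneg and at 874, 1271 and 3029 in GFPpos replicates 1, 2 and 3, and the pair ratios were 7.97, 9.85 and 18.3. Without the factors, GFPneg replicate 1 was the lowest library for Clu. Its counting interval (84.9 to 139) then overlapped that of GFPneg replicate 2 (123 to 135). Per 1000 reads of 12 widely expressed genes such as Actb, Clu stood at 109, 23.9 and 44.7 in GFPneg cells. In GFPpos cells it stood at 206, 279 and 562 on that scale. The ratio of replicate 1 then fell to 1.88, while those of replicates 2 and 3 were 11.7 and 12.6. GFPneg replicate 1 held only 612 reads of these 12 genes. GFPpos cells were the higher fraction in each of the 3 pairs under each of the 3 scales.

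Clu was among the most abundant messages of the GFPpos fraction. Divided by exon length, its level was 243, 324 and 724 CPM per kilobase in GFPpos and 63.9, 30.9 and 43.4 CPM per kilobase in GFPneg replicates 1, 2 and 3. Among 11959 tested protein-coding genes it ranked 46th, 27th and 9th on this scale in GFPpos and 242nd, 666th and 454th in GFPneg libraries. Even the lowest rank placed it in the upper part of the list, and Clu reads were abundant in both fractions.

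The direction held in each of 18 other fits of the table, with log2 fold changes between 2.60 and 3.84. These fits reuse the libraries from which Clu was chosen, so they describe only how the value depends on the processing. With the replicate number as a block, which pairs the fractions of a pool, the value was 3.15 (SE 0.48). Without GFPpos replicate 3, the library with the highest level, it was 2.64 (SE 0.49), and without the pair of replicate 3 it was 2.60 (SE 0.60). Without the pair of replicate 1 it was 3.84 (SE 0.48), and without GFPneg replicate 1 alone 3.55 (SE 0.48). With scaling to the widely expressed genes it was 2.60 (SE 0.62), a scaling that moved the median of all genes from 0.15 to -0.15. Relative to those medians Clu stood at 3.09 and 2.75.

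**Figure D2:**
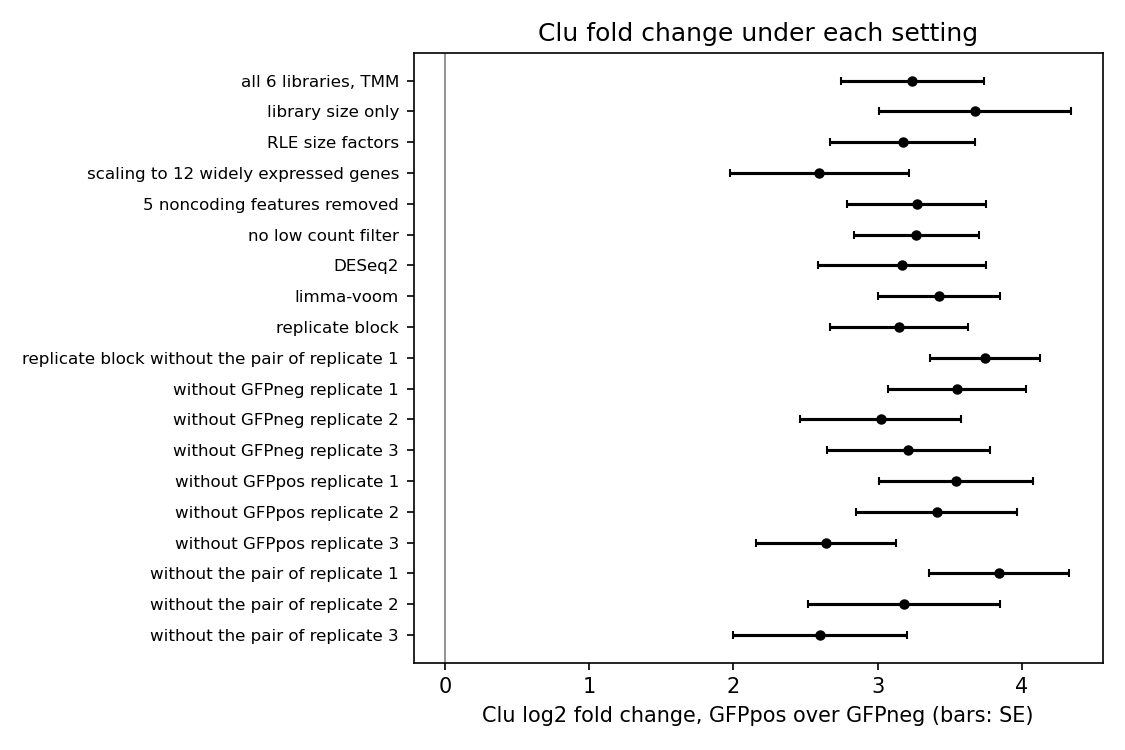
Log2 fold change of Clu, GFPpos over GFPneg, in the fit of all 6 libraries (top) and in 18 others that change the scaling, filter or tool, add the replicate block or leave out libraries. Points are estimates and bars are SE. Values run from 2.60 to 3.84. Clu was chosen from this contrast and the fits share libraries, so nothing is read from the direction.

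Of the 3 protein-coding genes nearest to Clu on each side, 5 of 6 had groups that overlapped or held 0 to 2 reads. Scara3, a scavenger receptor gene that starts 14.5 kb upstream, stood at 23.0, 27.5 and 10.9 CPM in GFPneg and at 29.6, 21.5 and 23.1 CPM in GFPpos replicates 1, 2 and 3, and the groups overlapped. Ccdc25, farther upstream, averaged 17.5 ± 5.01 CPM in GFPpos against 23.7 ± 13.6 CPM in GFPneg cells, also with overlap. Esco2, which encodes an acetyltransferase of cohesin used during DNA replication, starts 134 kb upstream and stood at 0, 7.14 and 0 against 34.2, 19.2 and 16.1 CPM. It was the 1 neighbour of the 6 whose groups did not overlap, with a log2 fold change of 2.90 (SE 1.26) that missed the threshold (edgeR quasi-likelihood, adjusted p = 0.871). Downstream, Gulo and Adam2 had 2 and 0 reads in all libraries together, and Ephx2, an epoxide hydrolase gene, averaged 11.7 ± 8.84 CPM in GFPpos against 3.39 ± 2.99 CPM in GFPneg cells with overlap.

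Receptors that take up or signal from clusterin were read in both fractions, and none met the threshold for a difference with the 6 libraries. Over the whole table, 0.0577% of genes were called higher and 0.00721% lower in GFPpos cells at an adjusted p below 0.05. Of 11 receptor and adaptor genes, 9 had enough reads to be tested, 7 had positive and 2 negative fold changes, and 0 were called by edgeR in either direction. At an unadjusted p below 0.05, 0 of the 9 passed in edgeR, and DESeq2 and the replicate block also called 0. Their median log2 fold change was 0.14, and that of all 13873 genes was 0.15. Over all genes, 57.5% had a positive fold change, and at an unadjusted p below 0.05 2.38% were higher and 2.88% lower. The counts at an unadjusted p given for the lists below are read against these shares.

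Lrp1, a large endocytic receptor, was the receptor with the highest level per kilobase (24.4 in GFPpos and 36.0 CPM per kilobase in GFPneg cells). It stood at 371, 645 and 896 CPM in GFPneg and at 539, 521 and 234 CPM in GFPpos replicates 1, 2 and 3. Its groups overlapped, and its log2 fold change was -0.57 (SE 0.44). It was called lower only in the fit that had the replicate block and also left out the pair of replicate 1 (log2 -1.10, adjusted p = 0.0382 in edgeR's test). That fit called 386 genes higher and 216 lower of 15346 tested. Without the pair of replicate 3 the log2 fold change of Lrp1 was 0.058. Over its 18 alternatives the adjusted p of Lrp1 ran from 0.0382 to 1.00. The related receptor genes Vldlr (19.6 ± 1.53 CPM in GFPpos against 16.0 ± 13.9 CPM in GFPneg cells) and Lrp8 (12.2 ± 3.87 and 10.4 ± 9.97 CPM) had 0 reads in GFPneg replicate 1 and 7.70 to 25.3 CPM in the other 5 libraries.

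Plxna4, a plexin, averaged 36.5 ± 8.59 CPM in GFPpos against 24.4 ± 16.1 CPM in GFPneg cells, and the scavenger receptor gene Stab1 33.6 ± 25.9 and 18.4 ± 7.14 CPM. Stab1 reached 63.1 CPM in GFPpos replicate 3, the library with the most Clu, and 12.2 to 26.2 CPM in the other 5. The receptor chaperone gene Lrpap1 averaged 63.6 ± 16.5 and 51.6 ± 35.2 CPM, and the endocytic adaptor genes Dab2 and Dab1 40.7 ± 30.9 and 34.5 ± 4.76 CPM, and 5.30 ± 4.62 and 8.24 ± 12.7 CPM. All of these groups overlapped. Lrp2, which encodes megalin, had too few reads to be tested, with 126 and 42 in GFPneg replicates 2 and 3 and at most 7 in each other library. Trem2, a receptor of microglia and macrophages, had 0 reads in all libraries, which allows up to 9.84 CPM in GFPneg replicate 1 and up to 0.154 to 0.273 CPM in the others.

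Of 13 extracellular chaperone and apolipoprotein genes, 8 were tested and 0 passed in either direction over all genes (at an unadjusted p below 0.05, 1 higher and 0 lower in edgeR's test, 0 with DESeq2). Apoe, the apolipoprotein that shares receptors with clusterin, stood at 1561, 2545 and 1493 CPM in GFPneg and at 4909, 4425 and 2655 CPM in GFPpos replicates 1, 2 and 3. Its groups did not overlap, and its log2 fold change of 1.10 (SE 0.39) missed the threshold (adjusted p = 0.720 in edgeR's test). Unlike Clu, Apoe was lowest in replicate 3 of the GFPpos libraries. Sparc, a matrix protein with chaperone activity, averaged 839 ± 57.4 CPM in GFPpos against 1041 ± 495 CPM in GFPneg cells, and the lipid exporter gene Abca1 248 ± 73.0 and 341 ± 319 CPM.

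Complement genes were mostly at low levels. Of 22 components and regulators 9 were tested, of which 1 had a positive and 8 a negative fold change (median log2 -0.85), and 0 passed over all genes in edgeR's test (at an unadjusted p below 0.05, 1 higher and 0 lower). The 1 positive member was C1s1, a protease of the first complement component. It stood at 13.1, 10.8 and 11.8 CPM in GFPneg and at 50.6, 32.5 and 93.4 CPM in GFPpos replicates 1, 2 and 3, without overlap, with a log2 fold change of 2.33 (SE 0.65, adjusted p = 0.437 in edgeR's test). DESeq2 called it (adjusted p = 0.0360), as did 1 other of 18 alternative fits, and over the 18 the adjusted p ran from 3.32e-05 to 1.00. Cd55, which protects cells from complement, averaged 40.0 ± 28.5 CPM in GFPpos against 62.5 ± 82.8 CPM in GFPneg cells, and C4b 19.5 ± 3.36 and 63.6 ± 87.7 CPM. The GFPneg mean of Cd55 rests on replicate 1 (157 CPM on 48 reads), and Cd55 was higher in the GFPpos fraction in 2 of 3 pairs. It was called higher only in the fit that had the replicate block and also left out the pair of replicate 1 (log2 1.63, adjusted p = 0.0205 in edgeR's test, 0.0205 to 1.00 over its 18 alternatives). That fit called 386 genes higher and 216 lower of 15346 tested. The genes of the terminal complex, which clusterin binds, were C6, C7 and C8a with 0 reads and Hc, C8b, C8g and C9 with too few to be tested.

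Regulators came next. Of 16 transcription factors reported for the Clu promoter, all tested, 8 had positive and 8 negative fold changes (median log2 -0.01) and 0 passed in edgeR's test (1 higher at an unadjusted p below 0.05, 0 with DESeq2). The AP-1 genes Jun (1596 ± 133 CPM in GFPpos and 1568 ± 432 in GFPneg cells) and Fos (959 ± 34.7 and 1307 ± 466 CPM) and the early response gene Egr1 (1287 ± 364 and 1368 ± 964 CPM) were the 3 most abundant.

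No call was made among genes of the secretory pathway, which clusterin passes through. Of 17 chaperone genes of the endoplasmic reticulum and its stress response, 11 had positive and 6 negative fold changes (median log2 0.13). Of 13 heat shock genes the counts were 6 and 7 (median -0.11), and of 15 apoptosis regulators 10 and 5 (median 0.51). In these 3 lists 0 genes passed over all genes, 0 passed at an unadjusted p below 0.05 in edgeR's test and 0 passed with DESeq2.

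Genes of mammary involution and of the injured intestine, the settings in which Clu is best known to rise, gave no calls with the 6 libraries. Of 23 involution genes 22 were tested, 10 with positive and 12 with negative fold changes (median log2 -0.05), and 0 passed in edgeR's test over all genes (at an unadjusted p below 0.05, 0 higher and 3 lower, 0 with DESeq2). Igfbp5, a growth factor binding protein gene of the regressing gland, stood at 1361, 4013 and 4163 CPM in GFPneg and at 1370, 1324 and 1088 CPM in GFPpos replicates 1, 2 and 3. It fell without GFPneg replicate 1 (log2 -1.68, adjusted p = 0.0131 in edgeR's test), the opposite direction to Clu, and with all 6 libraries did not pass (log2 -1.34, SE 0.43, adjusted p = 0.662). Over the 18 alternative fits its adjusted p ran from 1.90e-04 to 1.00, with 4 under the threshold. Mmp2, a matrix metalloprotease gene named after its values were seen, fell there too (log2 -2.66, adjusted p = 0.00116), and averaged 41.8 ± 2.98 CPM in GFPpos against 185 ± 141 CPM in GFPneg cells over the 6 libraries (adjusted p = 0.493 in edgeR's test, 1.26e-12 to 1.00 over the alternatives). Without GFPneg replicate 1, 0.412% of 15274 genes were called higher and 0.19% lower. The cytokine signalling genes Socs3 (848 ± 119 and 1013 ± 363 CPM) and Cebpb (441 ± 44.3 and 420 ± 204 CPM) overlapped between the groups.

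Of 13 genes that accompany Clu in the injured intestinal epithelium, 12 were tested, 7 with positive and 5 with negative fold changes (median log2 0.25). In edgeR's test 0 passed over all genes (at an unadjusted p below 0.05, 0 higher and 1 lower), and 0 passed with DESeq2. The gap junction gene Gja1 averaged 509 ± 35.1 CPM in GFPpos against 461 ± 87.2 CPM in GFPneg cells. The matricellular genes Ctgf (341 ± 114 and 617 ± 169 CPM) and Cyr61 (214 ± 36.5 and 361 ± 122 CPM), which respond to YAP, had lower means in GFPpos cells, with overlap. The overlap came from GFPneg replicate 1 (449 and 220 CPM). Both genes were lower in the GFPpos fraction of each of the 3 pairs.

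**Figure D3:**
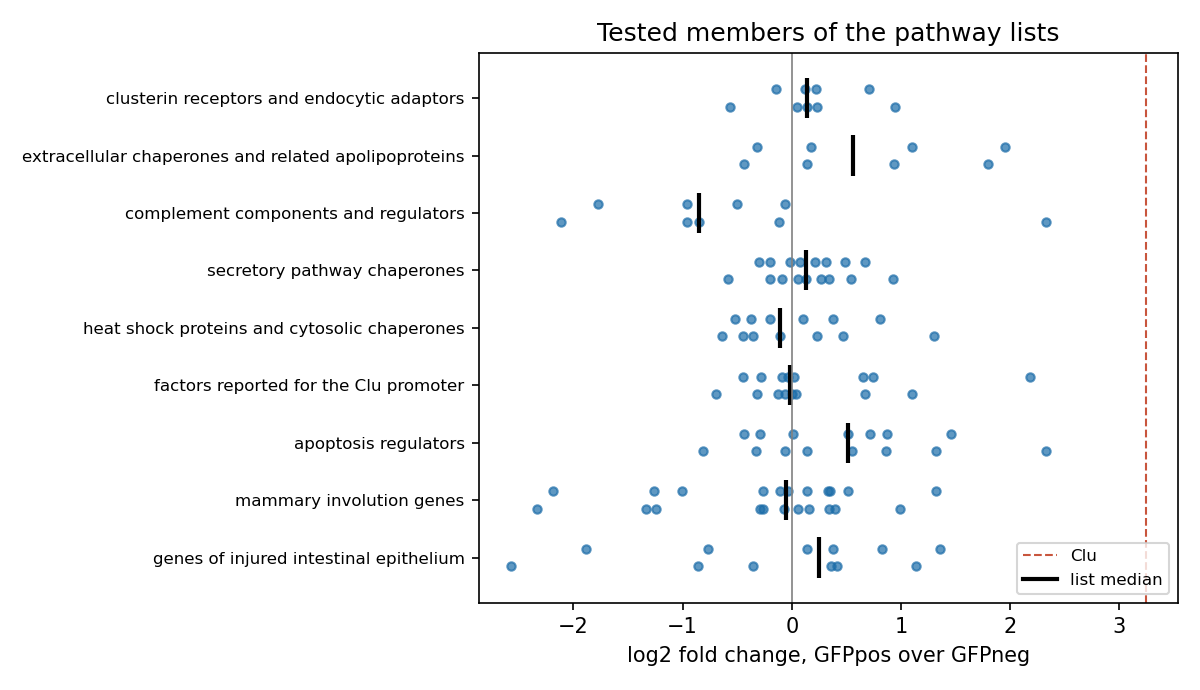
Log2 fold changes (GFPpos over GFPneg) of the tested members of 9 lists tied to clusterin. Points are genes, black bars list medians, and the dashed line is Clu at 3.24. List medians lie between -0.85 and 0.56. No member reaches the value of Clu, but Clu was chosen for its difference in this contrast, so nothing is read from that.

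Likeness to Clu was measured as Pearson's r of log2(CPM + 1) with Clu over the 6 libraries, among 5666 tested genes with a mean of at least 20 CPM. Since Clu separates the groups, genes chosen this way do so too, and no test of their difference is given. The 8 genes with the highest r were Adcy5 (0.996), Tnfaip3 (0.995), Kit (0.988), Chst4 (0.984), Serpina1e (0.982), Serpinb9 (0.980), Selenop (0.972) and Bend4 (0.971), and the next were Ccl21a and the complement gene C1s1 (0.964 each). The 6 points share their pools and the gap between the groups.

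Adcy5, an adenylyl cyclase gene, stood at 6.56, 3.44 and 6.01 CPM in GFPneg and at 39.1, 56.7 and 121 CPM in GFPpos replicates 1, 2 and 3. Its GFPneg values rest on 2, 67 and 66 reads. Its order over the GFPpos libraries was that of Clu. Tnfaip3, an inhibitor of NF-kappaB signalling, stood at 141, 82.3 and 115 CPM in GFPneg and at 329, 323 and 577 CPM in GFPpos cells. Kit, a receptor tyrosine kinase gene, stood at 16.4, 4.52 and 11.0 CPM in GFPneg and at 61.7, 92.1 and 145 CPM in GFPpos cells. Its GFPneg values rest on 5, 88 and 121 reads. Kit is also in the luminal list below and Chst4 in the venule list. With TMM factors, Tnfaip3 and Kit were highest in GFPpos replicate 3 and lowest in GFPneg replicate 2, as was Clu.

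Chst4, a sulfotransferase gene of lymph node venules, stood at 3.28, 0.513 and 0 CPM in GFPneg and at 55.2, 60.4 and 204 CPM in GFPpos cells, on 1, 10 and 0 reads in the GFPneg libraries. The serine protease inhibitor genes Serpina1e and Serpinb9 averaged 51.2 ± 41.2 and 231 ± 78.8 CPM in GFPpos and 1.25 ± 1.76 and 29.4 ± 8.84 CPM in GFPneg cells. Serpina1e belongs to a family of near-identical copies, so that its count is uncertain. Selenop, which encodes a selenium carrier protein of plasma, averaged 158 ± 45.6 and 75.2 ± 17.4 CPM, and Bend4 32.4 ± 7.47 and 8.08 ± 4.41 CPM. In GFPneg replicates 1, 2 and 3, Serpina1e had 1, 2 and 4 reads and Bend4 had 4, 96 and 68. The gap between the groups was smallest in Selenop, whose lowest GFPpos library (122 CPM) lay close to its highest GFPneg library (95.1 CPM).

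The list of 8 held under other offsets and not under other measures. All 8 remained with an offset of 0.5 or 5 in place of 1, and 6 with a minimum of 5 CPM. Without GFPneg replicate 1, 2 of the 8 remained (Adcy5 and Tnfaip3), although the r of all 8 stayed at 0.979 or above. Without GFPpos replicate 3, 3 remained (Adcy5, Tnfaip3 and Kit). After each group's mean was subtracted 0 remained, with r between 0.804 and 0.971. By Spearman's rho 14 genes tied at or above the 8th place, and the 8 genes had rho of 0.943 to 1.00. Leaving out GFPpos replicate 3 and subtracting the means were tried after the data were seen.

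**Figure D4:**
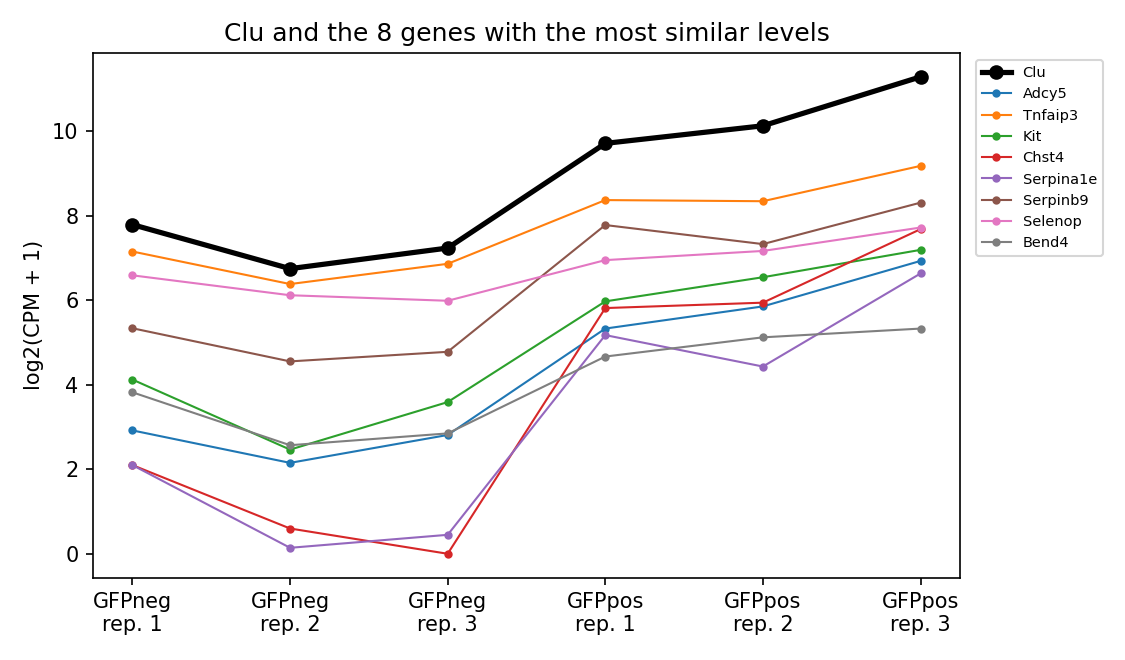
Levels of Clu (black) and of the 8 genes with the highest Pearson's r to it, as log2(CPM + 1), in the 6 libraries. Lines join the values of 1 gene and do not stand for an order of the libraries. Each gene is higher in the 3 GFPpos libraries than in the 3 GFPneg libraries, with Adcy5 (r = 0.996) nearest in shape to Clu.

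Markers of some other cell types were higher in GFPpos cells, as Clu was, while those of others were lower or overlapped between the groups. Summed over 8 markers of high endothelial venules, the vessels through which lymphocytes enter lymph nodes, the level was 3118, 670 and 1248 CPM in GFPneg and 8086, 8437 and 15628 CPM in GFPpos replicates 1, 2 and 3. The highest GFPpos library of this sum, replicate 3, was also the highest for Clu. The lowest library of all, GFPneg replicate 2, was the lowest for Clu with TMM factors. Without these factors, GFPneg replicate 1 was the lowest for Clu (110 CPM, against 129 CPM in GFPneg replicate 2). Of the 8 markers, edgeR called 3 higher (Ccl21a, Chst4 and Madcam1, named after their calls were seen), where 0.0577% of all genes were called higher. With the replicate block it called 6, where 0.31% of all genes were called higher and 0.13% lower. Lifr was the 1 marker with a negative fold change (662 ± 116 CPM in GFPpos against 736 ± 160 CPM in GFPneg cells), and it is also made by many other cells. Glycam1, a mucin gene and the most abundant of the list, stood at 2380, 25.2 and 312 CPM in GFPneg and at 7101, 7330 and 13977 CPM in GFPpos cells. Most of the sum was therefore Glycam1 in each GFPpos library and in GFPneg replicate 1. In GFPneg replicates 2 and 3 most of it was Lifr (635 and 921 CPM). This list was chosen with earlier results on these genes known. The part of such cells in the level of Clu was not tested.

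General endothelial markers did not separate the groups. Their sum over 10 genes was 1994, 1042 and 658 CPM in GFPneg and 1101, 963 and 2720 CPM in GFPpos replicates 1, 2 and 3, and 0 passed in edgeR's test (0 at an unadjusted p below 0.05, 0 with DESeq2). Pecam1, a junction protein gene of endothelium, averaged 558 ± 368 CPM in GFPpos against 379 ± 296 CPM in GFPneg cells, and Cdh5 369 ± 239 and 191 ± 53.2 CPM. Both peaked in GFPpos replicate 3 among the GFPpos libraries. The 3 GFPpos libraries held 2.27, 3.44 and 2.54 Clu reads per Pecam1 read, and the GFPneg libraries 0.306, 0.439 and 0.849.

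Follicular dendritic cells of lymphoid tissue, in which clusterin is abundant, were checked by 11 markers that also cover other reticular stroma. Their sum was 705, 521 and 316 CPM in GFPneg and 1279, 1386 and 2378 CPM in GFPpos cells. Their defining markers Cr2 and Cxcl13 had 0 reads in each of the 6 libraries, and Fcer2a at most 33. The sum was carried by Mfge8 (834 ± 274 and 398 ± 128 CPM), a secreted bridge to dying cells, and Enpp2 (475 ± 252 and 73.4 ± 95.7 CPM), which makes lysophosphatidic acid. Enpp2 passed with the replicate block (adjusted p = 5.38e-07 in edgeR's test) and did not without it (adjusted p = 0.426). Over its 18 alternatives the adjusted p ran from 1.39e-35 to 0.766, with 6 under the threshold. Ccl21a and Madcam1, shared with the venule list, were the 2 members called with the 6 libraries, where 0.0577% of all genes were called higher.

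The markers of the sorted cells themselves were present throughout. Basal and myoepithelial markers summed to 9109, 15601 and 13264 CPM in GFPneg and to 9001, 7678 and 7589 CPM in GFPpos replicates 1, 2 and 3, with 1 of 12 positive and 0 passing in edgeR's test (at an unadjusted p below 0.05, 0 higher and 4 lower, 0 with DESeq2). Myh11, a smooth muscle myosin gene, averaged 2105 ± 535 CPM in GFPpos against 3829 ± 552 CPM in GFPneg cells without overlap (log2 -0.86, adjusted p = 0.843 in edgeR's test), and Acta2 1283 ± 124 and 2069 ± 1641 CPM with overlap. Clu reads per Myh11 read were 0.403, 0.702 and 0.937 in GFPpos and 0.0668, 0.0279 and 0.0340 in GFPneg cells. Ratios to the venule and pericyte markers Glycam1 and Mcam did not separate the groups. Clu reads per Glycam1 read were 0.118, 0.152 and 0.178 in GFPpos and 0.0923, 4.22 and 0.478 in GFPneg replicates 1, 2 and 3, lower in the GFPpos fraction of replicates 2 and 3. Clu reads per Mcam read were 4.32, 9.27 and 13.1 in GFPpos and 13.4, 1.19 and 1.72 in GFPneg cells, lower in the GFPpos fraction of replicate 1. GFPneg replicate 1 held only 5 Mcam reads, and in replicates 2 and 3 the ratio was 7.78 and 7.63 times higher in GFPpos cells. Ratios to Krt14, Krt18 and Actb separated the groups. The lowest GFPpos and highest GFPneg values were 0.599 and 0.112 for Krt14, 3.70 and 3.19 for Krt18, and 0.490 and 0.427 for Actb.

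Luminal markers summed to 164, 557 and 327 CPM in GFPneg and to 728, 655 and 445 CPM in GFPpos cells. GFPpos replicate 3, the library with the most Clu, had the lowest luminal sum of the GFPpos libraries. Of 16 luminal markers, all tested, 11 had positive and 5 negative fold changes. The groups of 4, Kit among them, did not overlap. Over all genes tested, the shares without overlap were 9.53% with GFPpos cells higher and 3.63% with GFPpos cells lower. In edgeR's test 0 passed (at an unadjusted p below 0.05, 4 higher and 0 lower). The replicate block called 1 and DESeq2 called 1, in each case Kit, which was also chosen for its likeness to Clu. The luminal keratin genes Krt8 (122 ± 22.1 and 83.8 ± 33.4 CPM) and Krt18 (151 ± 68.0 and 87.4 ± 19.7 CPM) overlapped between the groups.

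Pericyte markers summed to 59.02, 174 and 225 CPM in GFPneg and to 417, 282 and 807 CPM in GFPpos cells, highest in the library with the most Clu. Of 9 markers 6 were tested, 5 with positive fold changes, and 0 passed in edgeR's test (at an unadjusted p below 0.05, 4 higher and 0 lower, 0 with DESeq2). The defining marker Kcnj8 had at most 15 reads in a library and 0 in 4 of them. Mcam averaged 168 ± 41.2 CPM in GFPpos against 64.1 ± 41.4 CPM in GFPneg cells, and Notch3 178 ± 91.3 and 41.9 ± 19.9 CPM, both without overlap. The part of these cells in the level of Clu was not tested either.

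The remaining lists were of fibroblasts, immune cells, Schwann cells, adipocytes and lymphatic endothelium. Fibroblast sums were 836 to 1725 CPM in GFPneg and 374 to 468 CPM in GFPpos cells, lower in GFPpos cells without overlap. Of the 8 fibroblast markers tested, 2 had positive and 6 negative fold changes, and the groups overlapped for each of them. In edgeR's test 0 passed (at an unadjusted p below 0.05, 0 higher and 4 lower). Postn alone gave 1152 and 1469 CPM of the sums in GFPneg replicates 2 and 3. Immune sums were 9.86 to 85.2 CPM and 14.2 to 70.8 CPM, Schwann cell sums 208 to 889 CPM and 124 to 207 CPM, adipocyte sums 86.7 to 150.4 CPM and 42.2 to 161 CPM, and lymphatic sums 218 to 430 CPM and 415 to 548 CPM, each in GFPneg and then in GFPpos cells. The macrophage markers Adgre1 and Csf1r had 0 reads in all libraries. Ccl21a, which other vessels also make, averaged 290 ± 74.0 CPM of the lymphatic sum in GFPpos cells and 8.30 ± 5.99 CPM in GFPneg cells. Of the 7 lymphatic markers, all tested, 3 had positive and 4 negative fold changes (median log2 -0.50). At an unadjusted p below 0.05 in edgeR's test, 1 was higher (Ccl21a) and 3 were lower.

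**Figure D5:**
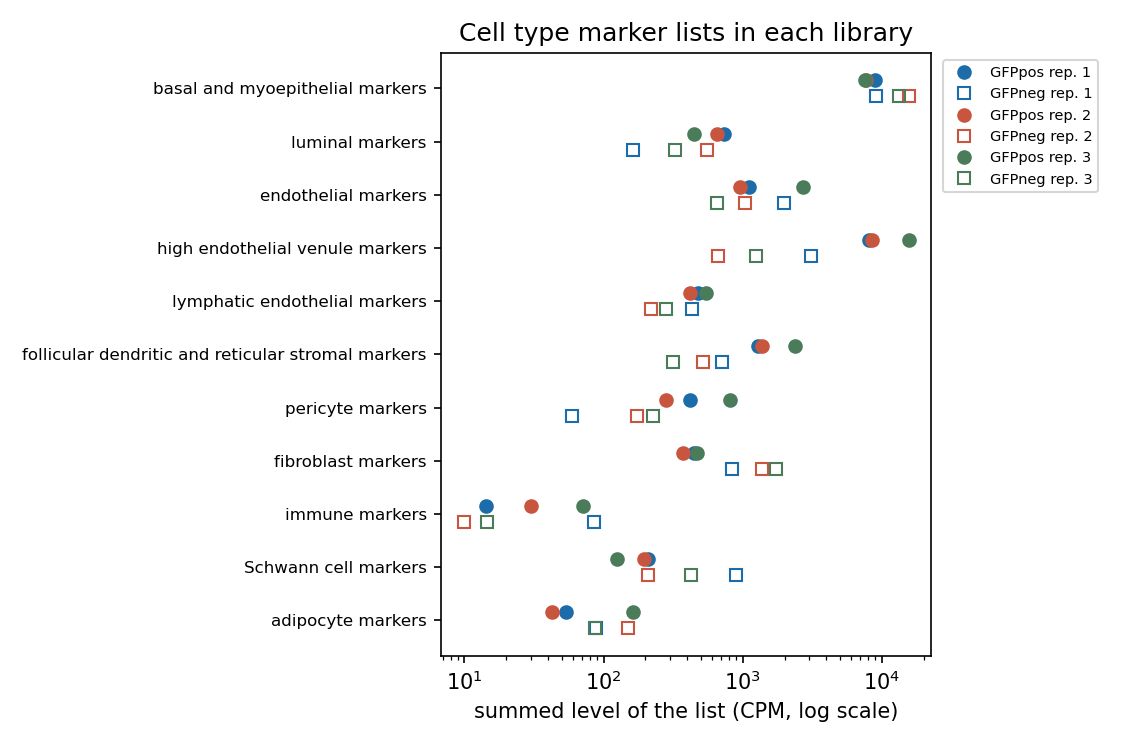
Summed level of each cell type marker list in the 6 libraries, in CPM on a log axis. Filled circles are GFPpos and open squares GFPneg libraries, and colours are replicates. The high endothelial venule list runs from 670 CPM in GFPneg replicate 2 to 15628 CPM in GFPpos replicate 3. With TMM factors, these libraries had the lowest and the highest Clu level. Most of the lower sum was Lifr (635 CPM), and most of the higher sum was Glycam1 (13977 CPM).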

How the data were processed

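The deposited values are raw read counts, 1 row per symbol, for 6 libraries of total RNA. The 5 summary rows were left out. TopHat2, HTSeq, cutadapt and FastQC are the tools, and mm10 the assembly, per the submitters' processing notes. Tool versions, counting mode and strand setting were not given in the sources used here. Reads aligned more than once are listed at 0. Positions came from GENCODE M21 on the same assembly, matched by symbol (47523 of 51826 symbols had 1 position).

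All genes were tested together in edgeR 4.0.16 (R 4.3.3) with TMM factors, filterByExpr and a quasi-likelihood F test on group alone. It covered 13873 genes, with Benjamini-Hochberg adjustment and a threshold of 0.05. The SE is the unshrunk log2 fold change over the square root of F. Alternatives used DESeq2 1.42.0, limma 3.58.1 (voom), other scalings and filters, the replicate block, and fits without libraries or pairs. The scripts were tested on simulated data. The design text says that a replicate's GFPpos and GFPneg cells were sorted together, so the number pairs them. Their deviations from the group means had correlations of -0.0077, 0.089 and 0.013 for replicates 1, 2 and 3.

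The gene and the 9 pathway and 11 marker lists were chosen with earlier results of these data known. The rule for named genes took Clu, all tested receptors, the 3 most abundant members and any called member of each other pathway list, the 2 most abundant of each marker list, the 8 genes most like Clu and 3 neighbours on each side. Members of the secretory, heat shock, apoptosis and smaller marker lists are given as counts or sums. A few results are not reported here.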

Additional observations from a re-analysis of the deposited data

How the results depend on the processing

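The log2 fold change of Clu kept its direction in all 18 other fits (2.60 to 3.84) and moved by less than the spread of the 3 pair values (SD 1.09 on the log2 scale). Clu was chosen from this contrast, so nothing is read from the direction. With the replicate block, which pairs the fractions of a pool, the log2 fold change of Clu was 3.15. Depth limits GFPneg replicate 1 most, where 1 read equals 3.28 CPM. Library size alone moved the median log2 fold change of all genes by 0.16, and scaling to widely expressed genes by -0.30.

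The numbers of genes called depended on the processing. Over all genes, 8 were higher and 1 lower in GFPpos cells. The numbers higher were 5 with library size only, 1 with scaling to 12 widely expressed genes, 65 with no low count filter, 46 with DESeq2, 54 with limma-voom, 43 with the replicate block, 386 with the block and without the pair of replicate 1, and 2 to 63 without 1 library or pair. The numbers lower were 236 with no low count filter, 46 with DESeq2, 24 with limma-voom, 18 with the replicate block, 216 with the block and without the pair of replicate 1, and 1 to 68 without 1 library or pair. Leaving out single libraries moved these numbers too, since 63 were higher without GFPneg replicate 1, 3 without GFPneg replicate 2, and 5 and 2 when GFPpos replicate 1 or 3 was left out. In the other direction 29, 3 and 11 were lower without GFPneg replicates 1, 2 and 3 and 4 without GFPpos replicate 2. The cause was not tested. Of the pathway list members, 0 were called in either direction with all 6 libraries, block or not. Without the low count filter 1 was higher and 3 were lower, with DESeq2 1 was higher (C1s1), with limma-voom 2 were lower, with the block and without the pair of replicate 1 3 were higher (Cd55 and C1s1 among them) and 4 lower (C4b, Igfbp5, Lrp1 and Mmp2), and without 1 library or pair 0 were higher and 0 to 2 lower (Igfbp5 and Mmp2 without GFPneg replicate 1).

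Among the genes named beside Clu, these log2 fold changes turned direction. With library size only the values were 0.74 (Dab1), 0.26 (Abca1), 0.36 (Cd55), 0.10 (Lifr) and 0.065 (Ccdc25). With scaling to widely expressed genes they were -0.23 (Lrp8), -0.041 (Vldlr), -0.20 (Dab2), -0.36 (Jun), -0.26 (Cebpb), -0.28 (Gja1), -0.22 (Pecam1) and -0.084 (Scara3). With limma-voom they were -0.11 (Lrp8), -0.10 (Vldlr), -0.064 (Lrpap1), 1.63 (Dab1), -0.013 (Dab2), 0.57 (Abca1), 1.71 (Cd55), -0.13 (Jun), -0.20 (Cebpb) and 0.0079 (Ccdc25). With the replicate block they were 1.41 (Dab1), -0.023 (Dab2), 0.48 (Cd55) and 0.22 (Egr1), and without the pair of replicate 1 as well -0.48 (Lrp8), -0.33 (Vldlr), 3.04 (Dab1), 0.74 (Abca1), 1.63 (Cd55), -0.21 (Jun), -0.32 (Cebpb) and -0.016 (Gja1). Over the fits without 1 library or pair the ranges that crossed 0 were -0.46 to 0.71 (Lrp8), -0.34 to 0.63 (Vldlr), -1.01 to 0.058 (Lrp1), -0.16 to 1.44 (Stab1), -0.14 to 0.71 (Lrpap1), -1.73 to 3.11 (Dab1), -0.56 to 0.64 (Dab2), -1.03 to 0.78 (Abca1), -1.68 to 1.60 (Cd55), -2.26 to 0.28 (C4b), -0.22 to 0.26 (Jun), -0.54 to 0.43 (Egr1), -0.32 to 0.45 (Cebpb), -0.013 to 0.27 (Gja1), -0.46 to 1.66 (Pecam1), -0.28 to 0.043 (Lifr), -0.60 to 0.16 (Ccdc25) and -0.044 to 0.70 (Scara3).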
